A study of Drosophila melanogaster with 6 samples.

Results

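The 7 genes described here encode subunits of TRAPP, the transport protein particle, and were taken by name from the 13946 protein-coding genes that the RefSeq table of the release 6 assembly places on the chromosome arms. They are Bet5 (the ortholog of human TRAPPC1), Trs20 (TRAPPC2), Bet3 (TRAPPC3), Trs23 (TRAPPC4), Trs31 (TRAPPC5), Trs33 (TRAPPC6B) and brun (TRAPPC9). All 7 names were found in the table. For each gene, every peak that overlapped the gene span or the 1 kb on either side of it by at least 1 bp was collected from 3 lists of binding sites of CrebA, a bZIP transcription factor of secretory tissues.

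TRAPP is a multisubunit tether of the early secretory pathway. It exchanges the nucleotide on the Rab1 GTPase, and so helps vesicles that leave the endoplasmic reticulum (ER) to dock at the Golgi. Small subunits form a core shared by all TRAPP complexes, and larger subunits join that core to make separate assemblies, of which the one with TRAPPC9 and TRAPPC10 also acts on Rab11. CrebA is known from Drosophila embryos as an activator of genes for ER and Golgi proteins, with high expression in the salivary gland.

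The peak lists come from chromatin immunoprecipitation and sequencing of Drosophila melanogaster embryos at stages 11 to 16, with 1 immunoprecipitated library and 1 input library for each of 3 genotypes. In Oregon R, a wild-type strain with no transgene, the antiserum recognised endogenous CrebA of the whole embryo. In the genotypes fkh-GAL4::UAS-CrebA-GFP and sage-GAL4::UAS-CrebA-GFP, an antibody to GFP precipitated a GFP-tagged CrebA that the Gal4 driver switched on from a UAS transgene. Neither driver is specific to one tissue, and the series description names the salivary gland as the place where both are active, so a peak of one driver list need not come from the gland. The labels name no CrebA mutation in the driver genotypes, where the GFP antibody reads the tagged protein. No group has a second library, so no difference between groups could be tested, and each value below is a description of these libraries.

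The Oregon R list held 14039 peaks, the fkh-Gal4 list 6464 and the sage-Gal4 list 7916. The height of a peak is the authors' fold enrichment, that is, summit signal divided by the local background of the peak caller, and the list medians were 1.88, 1.74 and 1.85. Ranks count from 1 at the highest fold within a list. Read depth is unknown from peak lists, so a gene without a peak is a gene where none was called, not one shown to be free of CrebA. Heights and ranks are therefore not compared between lists as levels.

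All 7 TRAPP genes had an Oregon R peak, while 2 of them, Trs20 and Trs23, had a peak with each driver. Bet5, Bet3, Trs31, Trs33 and brun had no fkh-Gal4 and no sage-Gal4 peak in the window. Among all protein-coding genes, 67.8% had an Oregon R peak in the same window, 33.6% an fkh-Gal4 peak and 43.3% a sage-Gal4 peak. The share with a peak in all 3 lists was 31.3% of all genes against 2 of 7 members, and 31.2% of all genes had no peak in any list, against 0 members. An Oregon R peak with no driver peak was found at 5 of 7 members and at 23.6% of all genes. Among the 9453 genes that had an Oregon R peak, 34.8% had no driver peak and 46.1% had peaks with both drivers. The members' 2 of 7 with driver peaks was thus near the share of all genes for fkh-Gal4 and for all 3 lists, and below it for sage-Gal4 and among genes with an Oregon R peak; with 7 genes these differences were not tested.

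Most of these genes are short, and a short gene offers a smaller window. The median span of the members was 822 bp, compared with 2161 bp for all protein-coding genes, and 5 of the 7 (Bet5, Trs20, Trs23, Trs31 and Trs33) spanned at most 1500 bp. All 5 short members had an Oregon R peak and 2 of the 5 had peaks with both drivers. Of the 4803 protein-coding genes of this size, 47.7% had an Oregon R peak and 17.5% had peaks with both drivers. Of the short genes with an Oregon R peak, 45.7% had no driver peak. The longer members, Bet3 and brun, had no driver peak, and of protein-coding genes over 1500 bp 78.4% had an Oregon R peak and 39.2% peaks with both drivers.

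**Figure D1:**
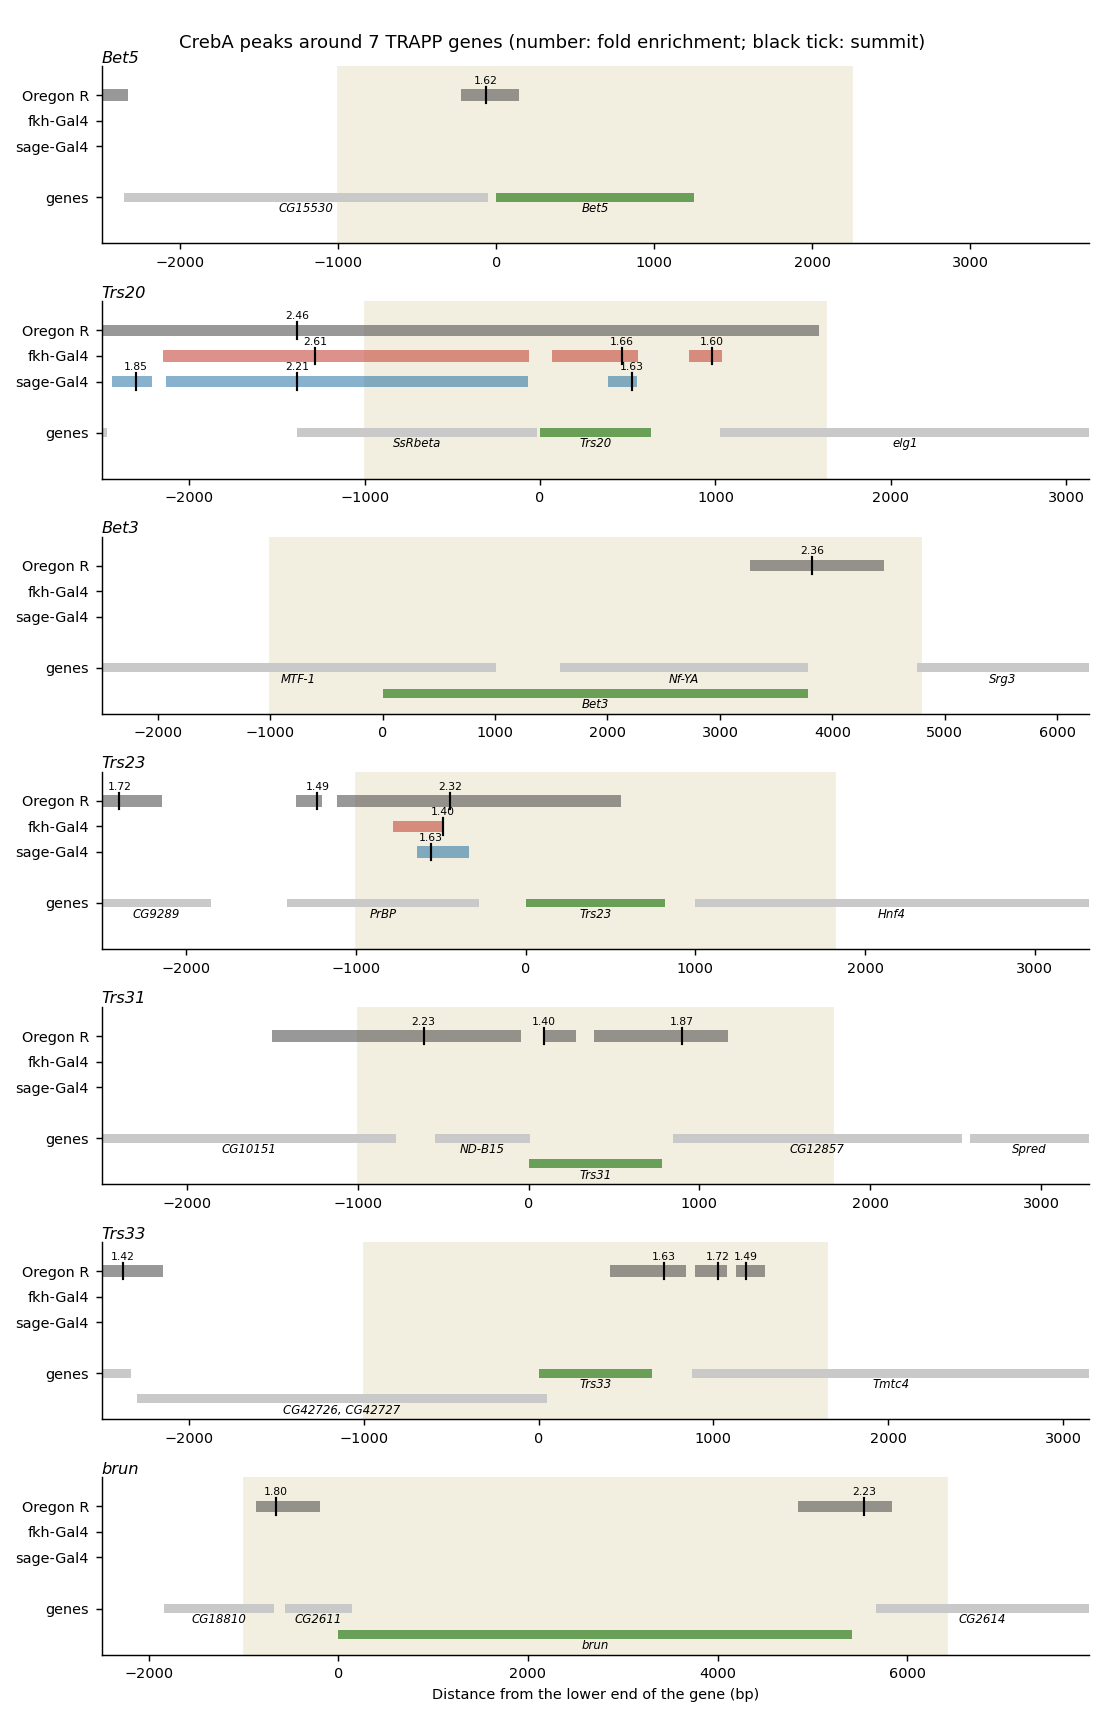
CrebA peaks around the 7 TRAPP genes, with 1 panel per gene; the horizontal axis is the distance in bp from the lower coordinate of the gene, green boxes are the members, grey boxes are other protein-coding genes, coloured boxes are peaks of each list with the fold enrichment printed at the summit tick, and the pale band is the gene span plus 1 kb. Peaks of the fkh-Gal4 and sage-Gal4 lists appear at Trs20 and Trs23 only, and the 2.46, 2.61 and 2.21 summits of Trs20 stand beyond the far end of SsRbeta or just inside it.

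The 12 Oregon R peaks of the members ranged from 1.40 to 2.46 in fold, with a median of 1.84, and 5 of them had a −log10 q of at least 10. Taking the highest peak of each gene, the median was 2.23 over the members and 2.24 over all protein-coding genes with an Oregon R peak. The members had 1 to 3 Oregon R peaks each, and genes with a peak had a median of 2. Of the 12 summits, 1 lay inside a member gene, 5 inside another gene and 6 between genes. The highest Oregon R summit of every member also lay in the window of at least 1 other protein-coding gene, and only for Bet3 was the member, with Nf-YA, the protein-coding gene nearest to it. Ownership of a peak by 1 gene was not tested.

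Trs20, on 3L from 16131001 to 16131632, encodes the small core subunit known in humans as sedlin, which links the core to the larger subunits. It had the highest fold of the 7 members in each of the 3 lists. In the Oregon R list a single peak, from 16127652 to 16132590, covered the whole gene and both sides. At 4939 bp it ranked 73 by width among the 14039 peaks, and its fold was 2.46 (rank 2104, −log10 q 23.6). Its summit lay 1387 bp below the gene, that is, outside the window.

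In the fkh-Gal4 list the highest Trs20 peak had a fold of 2.61 and rank 212 of 6464 (−log10 q 22.9). The sage-Gal4 counterpart had a fold of 2.21 and rank 1616 of 7916 (−log10 q 13.9). These peaks were 2089 and 2068 bp wide. Their summits lay 1283 and 1385 bp below the gene, close to the Oregon R summit, from which they were 104 and 2 bp away. All 3 summits were at the far end of SsRbeta, which encodes a subunit of the translocon-associated protein complex of the ER membrane, and SsRbeta was the nearest protein-coding gene to each. When peaks were ranked by −log10 q in place of fold, the Trs20 peak moved to rank 58 in the fkh-Gal4 list, 725 in the sage-Gal4 list and 1184 in the Oregon R list.

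Nearer to Trs20, each driver list also held lower peaks. The fkh-Gal4 list held a peak with its summit inside the gene, 466 bp from the lower end, with a fold of 1.66 (rank 4231), and the sage-Gal4 list one at 524 bp with a fold of 1.63 (rank 6530). These summits were 58 bp apart. A further fkh-Gal4 peak with a fold of 1.60 had its summit 347 bp beyond the upper end, between Trs20 and elg1, which encodes a protein that unloads the replication clamp. The Trs20 locus thus held 3 fkh-Gal4 and 2 sage-Gal4 peaks that overlapped the window, under 1 wide Oregon R peak. The highest peak of each driver had its summit outside the window.

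Trs23, on 2L from 8686231 to 8687052, encodes a core subunit that contacts the Rab GTPase in yeast TRAPP. Its Oregon R peak, from 8685118 to 8686794, had a fold of 2.32 (rank 2965, −log10 q 16.4). The driver peaks at the same place were low in their lists. The fkh-Gal4 peak had a fold of 1.40, rank 6400 of 6464 and a −log10 q of 1.34, where the lowest of that list was 1.30. The sage-Gal4 peak had a fold of 1.63, rank 6559 of 7916 and a −log10 q of 2.77. The fkh-Gal4 and sage-Gal4 summits lay 73 bp from each other and 41 and 114 bp from the Oregon R summit. All 3 summits were inside PrBP, which encodes a prenyl-binding protein, at 445 to 559 bp below Trs23, and neither driver peak reached the Trs23 span.

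Trs20 and Trs23 each had an Oregon R peak and a peak with each driver, but their highest driver peaks stood apart in height. In the fkh-Gal4 list the Trs20 peak was among the highest 3.28% and the Trs23 peak was close to the foot of the list, at 99.0% of the way down. In the sage-Gal4 list the places were 20.4% and 82.9%. In the Oregon R list they were close, at 15.0% and 21.1%. The 3 Trs20 values belong to peaks with summits outside the window and nearest to SsRbeta. The highest Trs20 peaks with a summit inside the window were at 65.5% for fkh-Gal4 and 82.5% for sage-Gal4, and the latter was nearly the place of Trs23.

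**Figure D2:**
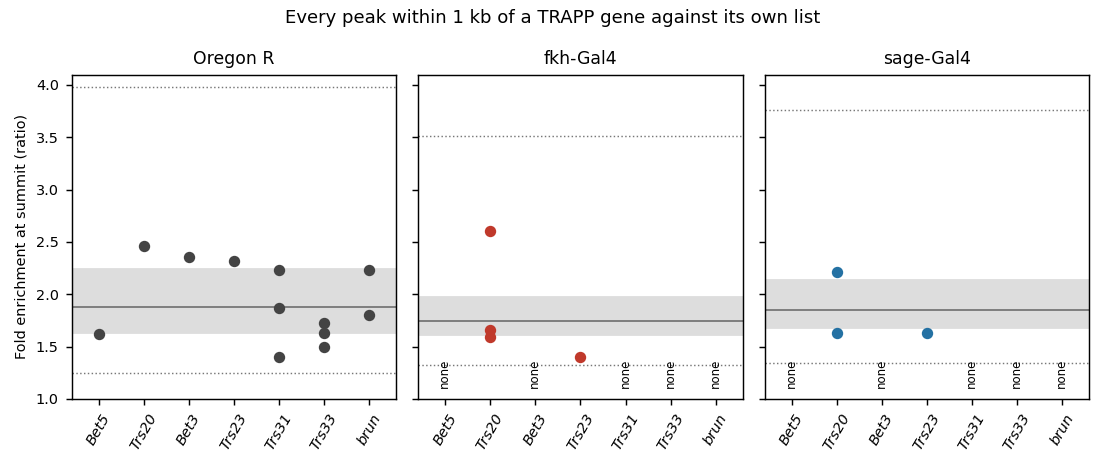
Summit fold enrichment (a ratio) of every peak in the window of a TRAPP gene (1 point per peak) in the Oregon R, fkh-Gal4 and sage-Gal4 lists, with the median of all peaks of the list as a line, the middle 50% as a grey band and the lowest and highest fold as dotted lines. Trs20 reaches 2.61 with fkh-Gal4 and 2.21 with sage-Gal4, Trs23 stays at 1.40 and 1.63, and the other 5 genes have points in the Oregon R panel only.

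The remaining core subunits had Oregon R peaks of uneven height. Bet3, on 3L from 9438482 to 9442267, encodes the core subunit that carries a buried acyl chain. It had 1 Oregon R peak with a fold of 2.36 (rank 2716, −log10 q 19.1), higher than that of Trs23. The summit lay 32 bp beyond the upper end of the gene, an end that RefSeq also gives to Nf-YA, a subunit gene of the NF-Y transcription factor that lies within the Bet3 span. The nearest fkh-Gal4 and sage-Gal4 peaks were 4618 and 4663 bp from the Bet3 span, with folds of 1.61 and 1.84, both beyond the upper end and near Srg3 and CG3529.

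Trs31, on 2R from 14757064 to 14757846, is a Bet3-like core subunit. It had 3 Oregon R peaks with folds of 2.23 (rank 3634), 1.87 (rank 7110) and 1.40 (rank 13731). The highest had its summit 614 bp below the gene, between CG10151 and ND-B15, a gene of respiratory complex I, and the lowest was the member peak with a summit inside its own gene. No driver peak was nearer than 12152 bp for fkh-Gal4 and 10622 bp for sage-Gal4.

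Trs33, on 3R from 15350345 to 15350995, encodes another Bet3-like core subunit. Its 3 Oregon R peaks were narrow, at 432, 184 and 166 bp, with folds of 1.63, 1.72 and 1.49, and none of them reached the Oregon R median of 1.88. Their summits lay 65, 377 and 538 bp beyond the upper end, the last 2 inside Tmtc4. The nearest driver peaks were 3124 bp (fkh-Gal4, 1.66) and 3014 bp (sage-Gal4, 1.80) away, with summits in the windows of Tmtc4 and Atg4b, a gene of autophagy.

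Bet5, on 3R from 30180232 to 30181486, encodes a core subunit with a longin-type fold. Its single Oregon R peak had a fold of 1.62 (rank 10676, −log10 q 5.03), the lowest among the highest peaks of the 7 genes. The summit lay 67 bp below the gene, inside the neighbouring CG15530. The nearest driver peaks were 8814 bp away for fkh-Gal4 (2.67, in the windows of Rsod and Mlc2) and 8434 bp away for sage-Gal4 (1.59).

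The gene brun, on 2L from 20650755 to 20656178, is the member that is not in the core. It encodes brunelleschi, a large subunit that Drosophila spermatocytes need for cytokinesis, and at 5424 bp it was the longest member. It had 2 Oregon R peaks, 1 at each end. The higher had a fold of 2.23 (rank 3626, −log10 q 15.0) and a summit 127 bp beyond the upper end, between brun and CG2614, and the lower had a fold of 1.80 (rank 7903) and a summit 657 bp below the gene. No driver peak lay over its span, and the nearest were 3786 bp (fkh-Gal4, 1.66) and 3062 bp (sage-Gal4, 1.68) below it.

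Subunits with and without driver peaks overlapped in Oregon R height. The highest Oregon R folds were 2.46 and 2.32 at Trs20 and Trs23, and 2.36, 2.23, 2.23, 1.72 and 1.62 at Bet3, brun, Trs31, Trs33 and Bet5. Bet3 thus ranked between the pair with driver peaks. The Oregon R peaks at Trs20 and Trs23 were wider, at 4939 and 1677 bp, than the highest peaks of the other 5 genes, of which the widest measured 1456 bp (Trs31). The wide Trs20 peak had its summit outside the window, and the difference in width was not tested.

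Among all Oregon R peaks, those of high fold overlapped a driver peak more often than those of low fold. In decile 1, the highest by fold, 45.4% of Oregon R peaks overlapped an fkh-Gal4 peak and 55.6% a sage-Gal4 peak. The shares were greatest in decile 2, at 47.9% and 61.0%, and in the tenth decile these shares were 16.5% and 21.0%. Of the 12 member peaks, 5 lay in deciles 2 and 3, and 2 of those 5 (at Trs20 and Trs23) overlapped peaks of both drivers. Of all Oregon R peaks, 45.9% in decile 2 and 44.6% in decile 3 overlapped peaks of both drivers. None of the other 7 member peaks, in deciles 6, 7, 8 and 10, overlapped a driver peak. Of all Oregon R peaks in those deciles, 40.8%, 34.3%, 27.5% and 26.8% overlapped a peak of at least 1 driver. Over all Oregon R peaks, 44.8% overlapped a peak of at least 1 driver, against 2 of the 12 member peaks.

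**Figure D3:**
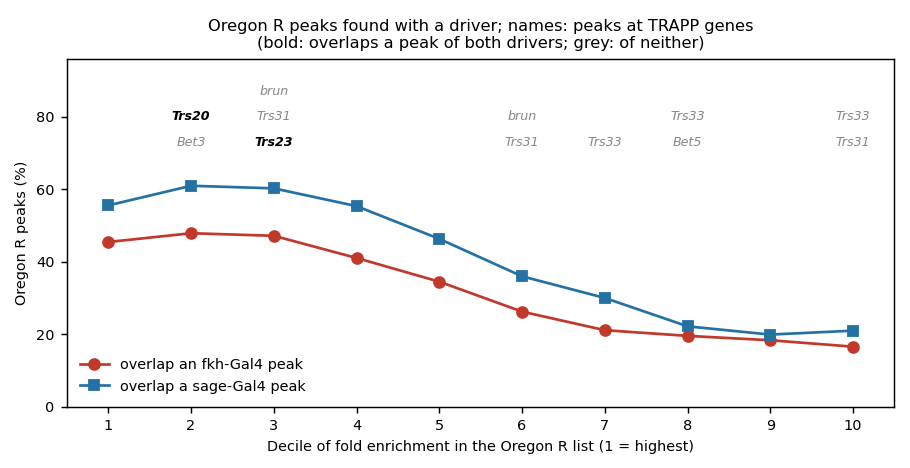
Share of Oregon R peaks, in percent, that overlap an fkh-Gal4 peak (circles) or a sage-Gal4 peak (squares) by at least 1 bp, by decile of Oregon R fold enrichment with decile 1 the highest. Names give the decile of each of the 12 Oregon R peaks at TRAPP genes, bold where the peak overlaps peaks of both drivers and grey where it overlaps neither; the bold names stand in deciles 2 and 3 beside grey names of Bet3, Trs31 and brun.

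The other 6 TRAPP genes in the table gave more driver peaks. They are SIDL (TRAPPC10), l(3)76BDm (TRAPPC8), gry (TRAPPC11), CG11396 (TRAPPC12), CG4953 (TRAPPC13) and CG9067 (TRAPPC2L), of which most encode the large subunits that distinguish the assemblies. All 6 had an Oregon R peak and 5 had peaks with both drivers, against 2 of the 7 members and 31.8% of all protein-coding genes. The exception was CG4953, with 2 Oregon R peaks and no driver peak. For gry, the highest peaks had folds of 2.41 with fkh-Gal4 (rank 406) and 2.49 with sage-Gal4 (rank 701), with summits at the lower end of gry or inside its neighbour CG32276. For l(3)76BDm the values were 1.88 (rank 2128) and 2.42 (rank 881), with both summits near Lon and PIG-F. These summits lay 1146 and 1083 bp below l(3)76BDm, outside the window. The sage-Gal4 peaks with summits inside l(3)76BDm had folds of 1.56 (rank 7255) and 1.66 (rank 6225). For SIDL, the partner of brun, the highest folds were 1.75 (rank 3201) and 2.14 (rank 1956). CG11396 had 1.59 and 2.21, with both summits inside its neighbour Pcif1. The fkh-Gal4 summit lay 1215 bp from CG11396, outside the window. CG9067 had 1.70 and 1.85.

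No test of the difference between the 2 sets of TRAPP genes was made, since the members were chosen with earlier results known. The other 6 were longer, with a median of 3080 bp against 822 bp, and the part of length in the difference was not tested. With the summit required in the window, 3 of the 6 and 2 of the 7 had peaks with both drivers. With each summit assigned to the nearest gene only, 2 of the 6 and 1 of the 7 had peaks with both drivers, and with a −log10 q of at least 10 it was 1 of 6 and 1 of 7. The share of all protein-coding genes with both drivers was not counted under these settings. In the same order, it cannot exceed their fkh-Gal4 shares of 31.7%, 23.0% and 11.0%. Nor can it be below the shares with a peak in all 3 lists, 28.5%, 17.9% and 8.26%. Over all 13 TRAPP genes, 13 had an Oregon R peak and 7 had peaks with both drivers.

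Genes of the machinery around TRAPP were taken from 4 lists. Median spans were 5186 bp (COPII coat), 2125 bp (partners), 2836.5 bp (COG) and 2996.5 bp (exocyst), against 822 bp for the members. The part of length in the differences from the members was not tested. All 7 genes of the COPII coat, which forms the vesicles that leave the ER, had peaks in all 3 lists, with Sec16 best placed in the fkh-Gal4 list (fold 2.98, rank 53; sage-Gal4 fold 2.50, rank 678). All 9 partner genes, namely Rab1, Rab11, p115, GM130, Syx5, Bet1, Sec22, Membrin and Ykt6, had peaks in all 3 lists, of which the SNARE gene Sec22 was best placed in the fkh-Gal4 list (fold 3.28, rank 11) and the golgin gene GM130 in the sage-Gal4 list (fold 2.96, rank 97). Of the Rab genes on which TRAPP acts, Rab1 had highest folds of 1.98 and 2.23 and Rab11 of 2.44 and 2.21 in the fkh-Gal4 and sage-Gal4 lists. Over all protein-coding genes with a peak, the medians of the highest fold were 1.91 and 2.02. The lowest folds of the 9 partners with each driver were those of the SNARE gene Ykt6, at 1.46 and 1.49. These peaks stood low in their lists, at rank 6146 of 6464 and rank 7628 of 7916. In the Oregon R list the highest Ykt6 peak had a fold of 3.17 (rank 247).

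Among other tethers, 7 of 8 genes of the COG complex, which tethers vesicles within the Golgi, had peaks with both drivers. Cog7 led in the fkh-Gal4 list (fold 2.85, rank 76), and Cog6 had an Oregon R peak (1.42) but no driver peak. Of 8 exocyst genes, whose products tether vesicles at the plasma membrane, 3 had an fkh-Gal4 peak and 6 a sage-Gal4 peak. Sec5 had the best place, with the values of Cog3 in each list, since both genes hold the same highest peaks, and Sec10 was the first of that list with no driver peak. All 16 of these genes had an Oregon R peak. In the span plus 1 kb, 2 of 7 members had a peak with each driver, beside 33.6% (fkh-Gal4) and 43.3% (sage-Gal4) of all protein-coding genes. The members had the lowest share of the 6 lists in the driver libraries, but that place depended on the setting. Once peaks had to reach a −log10 q of 10, exocyst was lower for each driver, at 1 of 8 against 1 of 7 members. The same counts held for fkh-Gal4 with the 1000 highest peaks and with nearest genes only. For sage-Gal4 these settings gave exocyst 0 and 3 of 8, and the members 0 and 1 of 7. Of all protein-coding genes, 11.0% (fkh-Gal4) and 14.6% (sage-Gal4) had a peak of that −log10 q. The shares were 10.1% and 9.23% with the 1000 highest peaks, and 23.0% and 30.0% with nearest genes only. The differences between the lists were not tested.

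**Figure D4:**
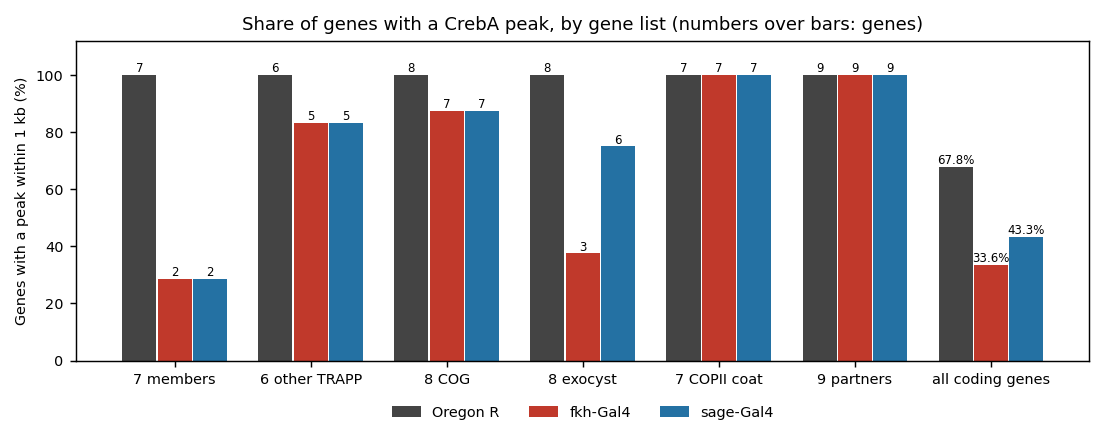
Share of genes, in percent, with at least 1 peak in the gene span plus 1 kb in the Oregon R, fkh-Gal4 and sage-Gal4 lists, for the TRAPP members, the other TRAPP genes, COG, exocyst, COPII coat and partner genes, and all protein-coding genes; the number of genes is printed over each bar. The members reach 7 of 7 with Oregon R and 2 of 7 with each driver, beside 67.8%, 33.6% and 43.3% of all genes.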

How the data were processed

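The data are 3 peak lists in narrowPeak layout with no header, 1 for each immunoprecipitated library. Per the labels, fixation was in 1.8% formaldehyde, after an 8 h collection and 11 h of ageing. BWA, MACS2 version 2.1.0.20140616 and the build dm6 are named in the submitters' processing notes. How inputs entered the calls, and whether collections were pooled, is not given in the sources used here. As deposited, the fold is a ratio at the summit. The authors' caller also gave each peak a p-value and a q-value, deposited as −log10 p and −log10 q, an integer score, which was not used, and, as an other unit, the offset of the summit in bp. Peak lists give no counts, so depth and counting error are unknown.

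Genes came from RefSeq on release 6 (dm6), in a table that gives no strand, so "lower" and "upper" refer to coordinates and exons were not told apart. No sequence was used. Members, lists and comparisons were chosen with earlier results of these data known. Named were all members, the other TRAPP genes, neighbours that share a peak, and of each further list the gene with the best fkh-Gal4 rank and the first without a driver peak; the Rab genes, GM130 and Ykt6 were added after their values were seen. Background shares count all 13946 protein-coding genes under the same rule. No test was run. The closing section gives 7 alternatives for the counts and 1 for the ranks. Work was done in Python 3.11.15 with pandas 2.3.3, numpy 2.4.6 and matplotlib 3.10.9, and the overlap code was tested on simulated data.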

Additional observations from a re-analysis of the deposited data

How the results depend on the processing

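With flanks of 500 bp or 2 kb all 5 counts over the members were unchanged. With the gene span only, 1 member had an fkh-Gal4 peak, 1 a sage-Gal4 peak and 1 a peak in all 3 lists, because the Trs23 driver peaks lay outside the gene. The shares of all protein-coding genes were 24.7%, 31.9% and 22.2%. With the summit required in the window, 1 member was in all 3 lists, as the Oregon R summit of Trs20 lay outside. Of all protein-coding genes, 28.5% were in all 3. With a −log10 q of at least 10, 1 member had an fkh-Gal4 peak, 1 a sage-Gal4 peak, 1 was in all 3 lists (Trs20) and 2 were in none (Bet5 and Trs33). The matching shares of all protein-coding genes were 11.0%, 14.6%, 8.26% and 48.2%. With the 1000 peaks of highest fold per list the counts were 0 for Oregon R, 1 for fkh-Gal4 (Trs20), 0 for sage-Gal4, 0 in all 3 and 6 in none. In the same order, the shares of all protein-coding genes were 9.92%, 10.1%, 9.23%, 2.16% and 80.4%. With each summit given to the nearest gene only, the counts were 3 for Oregon R (Bet3, Trs31 and Trs33), 1 for fkh-Gal4 and 1 for sage-Gal4 (Trs20, by its lower peaks), 0 in all 3 and 3 in none. The shares of all protein-coding genes were here 48.0%, 23.0%, 30.0%, 17.9% and 46.6%. Bet5, Bet3, Trs31, Trs33 and brun had no driver peak under any of the 7 alternatives on the counts. This outcome was fixed beforehand, because only the 2 kb flank could add a peak and the other alternatives could only remove some. The driver peak nearest to any of these 5 genes was 3014 bp away, at Trs33 in the sage-Gal4 list. Ranking by −log10 q in place of fold changed 3 of 11 ranks of the members' highest peaks by over 1.5 times, all 3 at Trs20, and the other 8 by at most 1.27 times. The alternative that counts summits near the transcription start was not run, as it needs strand. No paired analysis was possible because each group has 1 library and no result comes from a test. A list of called peaks cannot show that a site is unbound.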

Other observations

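Beyond the windows, 5 peaks lay within 2500 bp of a member gene. Of these, 4 were Oregon R peaks, at Bet5 (fold 1.86), Trs23 (1.72 and 1.49) and Trs33 (1.42), and 1 was a sage-Gal4 peak at Trs20 (1.85) with its summit 2302 bp from the gene. No fkh-Gal4 or sage-Gal4 peak was in this outer zone of Bet5, Bet3, Trs31, Trs33 or brun.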
